A study of Mus musculus with 36 samples.

Results

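The nuclear genes expressed in mouse morulae were compared between embryos of fathers fed a high-fat diet (HFD) and embryos of fathers fed a low-fat diet (LFD). The morula table of the series holds 55487 genes, of which 55450 are not on the mitochondrial chromosome, and these 55450 nuclear genes were the members chosen. A count in at least 1 library was recorded for 29749 of them, and 13414 passed the filter on low counts and were tested. The 6 morula libraries, 3 per diet, belong to a series of 36 samples.

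The labels give every embryo as C57BL/6 wildtype, and the groups as Morula HFD and Morula LFD. By the study's methods, C57BL/6N males entered the diet at 6 weeks of age and stayed on it for 2 weeks, with 60% of calories from fat in the HFD and 10% in the LFD. Their cauda sperm, taken at 8 weeks of age, was used for in vitro fertilization (IVF) of oocytes from unexposed, superovulated wild-type females aged 10 to 11 weeks. Morulae of both groups were picked singly after 72 h of culture, and all of them developed in culture. The number of embryos and of fathers behind a library is not given in the sources used here, and p-values therefore measure the spread between these libraries, which may in part be technical. In 3 samples a free-text field names the other diet. The title, the treatment field and the letter in the column name were followed, and the direction of each difference rests on them.

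A morula is the compacted ball of cells that precedes the blastocyst. By this stage most maternal RNA of the oocyte has been cleared and the embryonic genome is active. The outer cells become polarized, keep Hippo signalling low and turn towards trophectoderm, the future placenta, while the inner cells keep Hippo signalling high and give the inner cell mass, which later splits into epiblast and primitive endoderm. Tight junctions, ion pumps and water channels of the outer cells then pump the blastocoel. Levels are given as CPM, counts scaled by library size with the trimmed mean of M-values (TMM), and levels of different genes are compared only per kilobase of gene length (RPKM, computed here from the CPM).

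The libraries held between 11471251 and 12153141 counts, and nuclear genes took between 73.1% and 77.2% of them. The HFD libraries averaged 74.5% ± 1.58 (SD, n = 3) and the LFD libraries 75.2% ± 1.78 (SD, n = 3), a difference within the spread (two-sided exact permutation test, p = 0.6). With 3 libraries against 3, such a test cannot give a p below 0.1. The libraries did not sort by diet. The root mean square difference of log2 CPM between 2 libraries averaged 0.746 between diets and 0.740 within a diet (exact permutation test over the 20 arrangements, one-sided, p = 0.5). The nearest pair of libraries, at 0.675, was HFD library 6 with LFD library 3, from different diets. No library stood apart, and no pair was as alike as copies of one library would be, since the chi-square per degree of freedom was at least 8.19.

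With the filter on low counts, no nuclear gene differed between the diets by edgeR's adjusted test. edgeR's quasi-likelihood test with Benjamini-Hochberg adjustment called 0 of 13414 nuclear genes (0%), and the smallest adjusted p was 0.456. At an unadjusted p under 0.05 there were 851 genes, of which 473 had the higher mean on HFD (3.53% of the genes tested) and 378 the lower (2.82%). The 3 libraries of 1 diet lay wholly above those of the other for 799 genes in the HFD direction (5.96%) and for 828 genes in the LFD direction (6.17%). The middle of the distribution was near 0, with a median log2 fold change (HFD over LFD) of 0.01, and the 5th and 95th percentiles lay at -0.64 and 0.81.

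The other tools and settings gave between 0 and 59 calls. limma-voom called 0 nuclear genes, with 891 below 0.05 before adjustment. NOISeq, the tool named in the study's methods and rewritten here, also called 0, with a highest probability of 0.772 against a threshold of 0.8. DESeq2 called 17 of the 6903 nuclear genes it gave an adjusted p (0.246%), 5 with the higher and 12 with the lower level on HFD. edgeR run with no filter on low counts called 59 of 29749 genes (0.198%), 24 higher and 35 lower. Of these, 50 were among the genes tested in the filtered fit. Of the 50, 37 did not overlap between the diets, beside 12.1% of all tested nuclear genes. The 50 were picked by a small p in these same libraries, so this count is a description. Without HFD library 5, edgeR called 2 genes, the rRNA gene CT010467.1 and the small nucleolar RNA host gene Snhg11. Over all 6 libraries the diets overlapped in both. CT010467.1 took 4.07% of nuclear counts in HFD library 5, the library left out, and 3.13% and 3.21% in HFD libraries 6 and 7. On LFD it took 4.06%, 4.56% and 4.07%. The 95% interval of the log2 fold change lay within -1 and 1 for 58.7% of tested nuclear genes and within -0.5 and 0.5 for 30.2%. Of the 6738 genes with a mean of at least 10 CPM, 97.3% had an interval within -1 and 1.

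**Figure D1:**
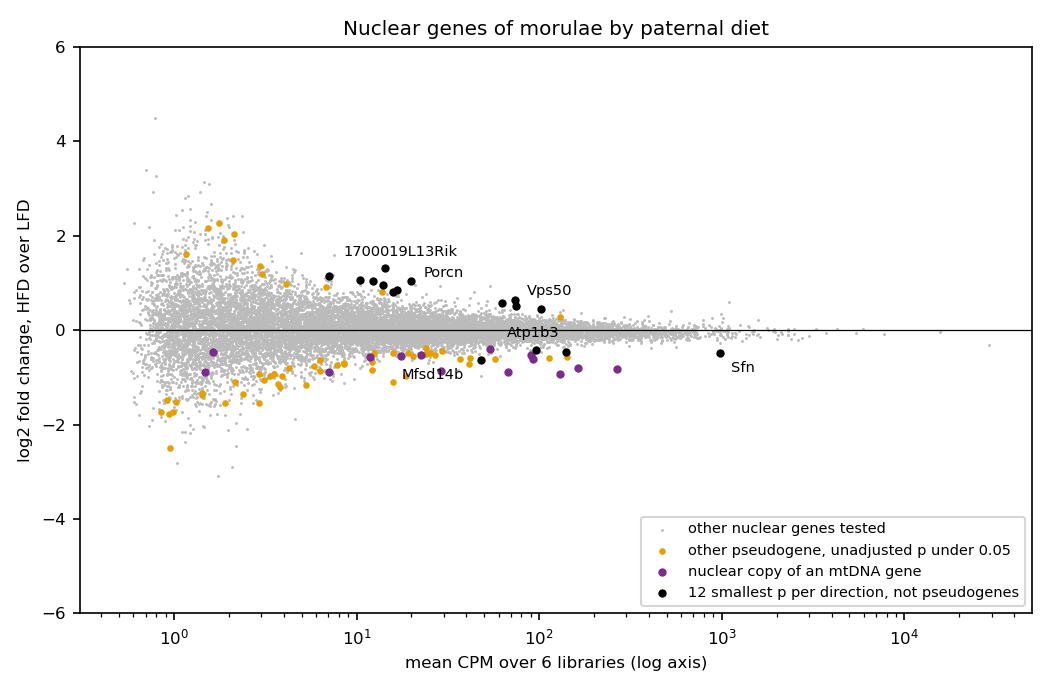
Log2 fold change (HFD over LFD) against mean CPM over the 6 libraries (log axis) for the 13414 tested nuclear genes, each a point. The cloud is centred near 0 and narrows with level, the 14 nuclear copies of mtDNA genes all lie below 0, and Sfn is the most abundant of the genes named for a small p.

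The 24 genes described next were the 12 with the smallest unadjusted p in each direction among genes whose libraries did not overlap and whose mean reached 5 CPM. All had an adjusted p of 0.456 by edgeR, so their values are a description. Among the 12 with the higher level on HFD were 10 protein-coding genes, 1 antisense gene and 1 processed transcript. Porcn (chrX:8193848-8206525), the acyltransferase that attaches the lipid needed for secretion of Wnt ligands, was measured at 21.9, 31.6 and 26.7 CPM on HFD and at 9.23, 14.7 and 15.3 CPM on LFD. Its log2 fold change was 1.03 (standard error, SE, 0.22), and the lowest HFD library stood clear of the highest LFD library. Vps50 (chr6:3498382-3603531), a subunit of a complex for recycling from endosomes, had 98.8, 74.8 and 90.5 CPM on HFD and 60.3, 63.4 and 60.8 CPM on LFD, a log2 fold change of 0.52 (SE 0.12). The LFD libraries of Vps50 were nearly equal, and the distance to the lowest HFD library, number 6, was small.

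The processed transcript 1110038B12Rik (chr17:34950238-34952471) had 73.1, 98.1 and 96.5 CPM on HFD and 59.6, 54.6 and 58.5 CPM on LFD, a log2 fold change of 0.63 (SE 0.13). For BC004004 the HFD libraries held 17.4, 12.5 and 19.5 CPM and the LFD libraries 8.74, 8.89 and 6.54 CPM, a log2 fold change of 1.03 (SE 0.24). Others in this direction serve trafficking, chromatin and mitochondria. Stx5a, a SNARE of the Golgi, had a log2 fold change of 0.96 (SE 0.24), and Atg16l2, an autophagy protein of the Atg16 family, 0.80 (SE 0.19). Mllt6, which binds chromatin, stood at 0.57 (SE 0.15), and Hmg20b, a subunit of complexes with the histone demethylase Kdm1a, at 1.06 (SE 0.27). Cox18, an insertase of the inner mitochondrial membrane that is encoded in the nucleus, stood at 0.85 (SE 0.21), Zfp777 at 1.14 (SE 0.29) and the antisense gene 1700019L13Rik at 1.31 (SE 0.31).

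Of the 12 genes with the lower level on HFD, 5 were nuclear copies of mtDNA genes, 3 were other pseudogenes, 1 adjoined a ribosomal RNA gene and 3 were protein-coding. Sfn (chr4:133600556-133602168), which encodes stratifin, a phosphoprotein-binding adaptor of epithelial cells, was the most abundant. It was measured at 852, 896 and 703 CPM on HFD and at 1325, 1133 and 969 CPM on LFD. All HFD libraries of Sfn lay below all LFD libraries, with a log2 fold change of -0.48 (SE 0.11, 95% interval -0.72 to -0.24). DESeq2 gave it an adjusted p of 0.0212, while edgeR's adjusted p was 0.456.

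Atp1b3 (chr9:96332655-96364442), a beta subunit of the Na+/K+ pump, had 84.0, 81.2 and 81.9 CPM on HFD and 104.6, 118.4 and 106.8 CPM on LFD, a log2 fold change of -0.42 (SE 0.10). Its HFD libraries were nearly equal and all lay below the LFD libraries. Mfsd14b (chr13:65064663-65112975), a membrane protein of the major facilitator superfamily, had 36.8, 39.6 and 36.7 CPM on HFD and 51.5, 68.9 and 55.2 CPM on LFD, a log2 fold change of -0.63 (SE 0.14). The remaining gene, ENSMUSG00000118642 (chr17:39848103-39848827), has no symbol and overlaps the end of the rRNA gene CT010467.1 (chr17:39846353-39848201) by 99 bases on the opposite strand. CT010467.1 itself took between 3.13% and 4.56% of nuclear counts and had a log2 fold change of -0.32 (SE 0.09), with HFD and LFD libraries overlapping. Since a strand setting is not given for the counting, reads within the 99 bases that the neighbours share cannot be told apart.

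**Figure D2:**
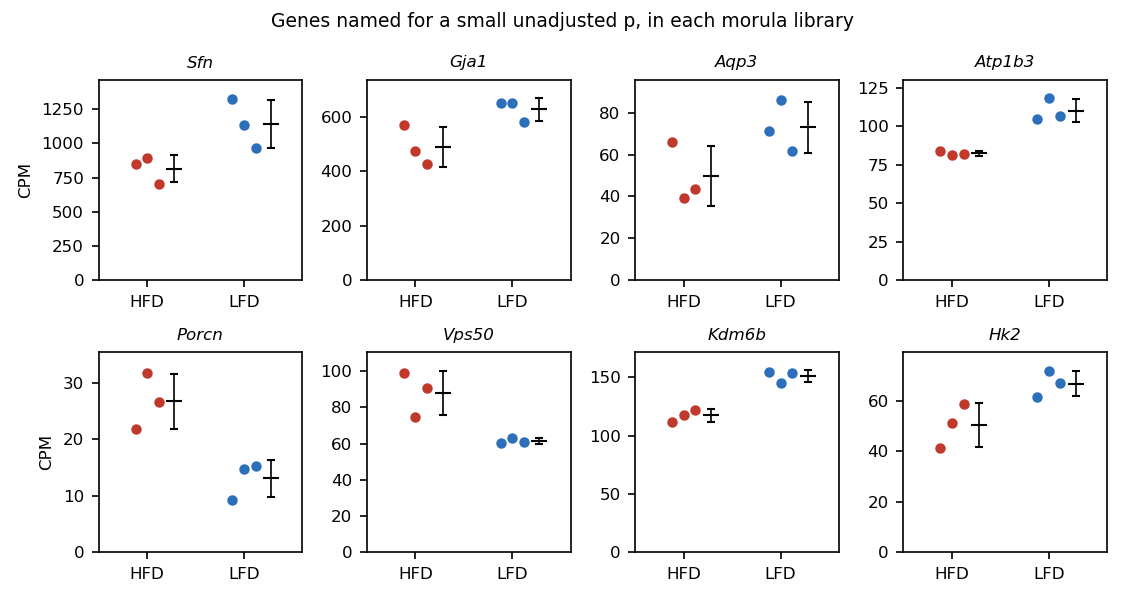
CPM of 8 genes named for a small unadjusted p, by paternal diet. Points are single libraries (3 per diet, HFD red, LFD blue), the bar beside them is the mean with its SD, and each axis starts at 0. In Sfn, Gja1, Atp1b3, Kdm6b and Hk2 every HFD library lies below every LFD library, in Porcn and Vps50 every one lies above, and in Aqp3 the diets overlap.

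Nuclear copies of mitochondrial genes were 5 of the 12 genes named for a small p and a lower level on HFD. Stretches of mtDNA have been inserted into nuclear chromosomes in the past, and the youngest copies still carry nearly the same sequence as the mitochondrial gene, so that a short read may match both. Of the tested nuclear genes, 14 (a class drawn up after the values were seen) matched an mtDNA gene over at least 80% of their length at 90% identity or more. All 14 had a log2 fold change below 0, with a median of -0.71, and 11 of the 14 had an unadjusted p under 0.05, against 2.82% of all tested nuclear genes. Their sum was 786.7, 822.6 and 528.5 CPM on HFD and 1226, 1176 and 1191 CPM on LFD, so the diets did not overlap. As a share of nuclear counts the copies took 0.0960% ± 0.0217 (SD, n = 3) in HFD embryos, while in LFD embryos they took 0.158% ± 0.00278 (SD, n = 3) (exact permutation test, two-sided, p = 0.1, the smallest this design allows). Since the class was drawn up after the values were seen, this p is a description and no independent test. Most copies lie side by side on chromosomes 1, 2 and 4, so the 14 are not independent members.

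The most abundant copy was Gm10925 (chr1:24613974-24614651), equal to mt-Atp6 over all of its 678 bases. It had 239.9, 193.7 and 143.6 CPM on HFD and 397.3, 278.6 and 344.9 CPM on LFD, a log2 fold change of -0.82 (SE 0.16). Gm28661, equal to mt-Co2 over 681 bases, had a log2 fold change of -0.60 (SE 0.12), and Gm28439, equal to mt-Nd4 over 876 bases, one of -0.81 (SE 0.20). Gm13340, which differs from mt-Co1 at 37 of 1545 bases, stood at -0.92 (SE 0.19). The following windows of 75 bases, the read length of the libraries, show a stretch in which a read could not be assigned and one in which it could. They were read from the GENCODE transcripts on build GRCm38, 5′ to 3′, and capitals mark the bases at which the pair differs, none in the first pair and 3 in the second.
Gm10925, chr1:24614577-24614651, minus strand: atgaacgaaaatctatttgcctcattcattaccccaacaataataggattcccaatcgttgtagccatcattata
mt-Atp6, chrMT:7927-8001, plus strand: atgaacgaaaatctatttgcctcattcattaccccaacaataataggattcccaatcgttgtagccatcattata
Gm13340, chr2:22589561-22589635, minus strand: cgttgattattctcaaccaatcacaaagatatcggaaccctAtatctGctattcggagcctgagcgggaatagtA
mt-Co1, chrMT:5340-5414, plus strand: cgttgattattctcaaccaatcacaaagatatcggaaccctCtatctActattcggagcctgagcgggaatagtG

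The mtDNA genes that these copies match differed among themselves. mt-Co2, mt-Atp6 and mt-Co3, each equal to a nuclear copy, held at most 152.4 CPM in any library, and their log2 fold changes were -0.82 (SE 0.17), -0.98 (SE 0.19) and -0.88 (SE 0.21). mt-Co1, which Gm13340 resembles, held between 10430 and 13260 CPM, and its log2 fold change was 0.07 (SE 0.07). mt-Nd4, to which Gm28439 is equal over a part of its 1378 bases, held between 5324 and 7966 CPM, with a log2 fold change of 0.15 (SE 0.10). Among mtDNA genes at a low level with a near-identical copy, the lower value on HFD varied in size, and the diets overlapped in mt-Nd4l and mt-Nd3. mt-Nd4l, equal to Gm10222 over 294 bases, held between 82.8 and 107.7 CPM with a log2 fold change of -0.18 (SE 0.11), and mt-Nd3 between 82.2 and 100.3 CPM with one of -0.09 (SE 0.11). Per 1000 CPM of the 11 mtDNA genes that a copy matched, the copies took 12.8, 15.4 and 10.4 CPM on HFD and 27.5, 21.2 and 21.8 CPM on LFD. How reads that match several places were counted is not given, and its part in these values was not tested.

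Other pseudogenes were also more often lower than higher at an unadjusted p under 0.05. Of 918 tested pseudogenes that are not mtDNA copies, 47 had the lower level on HFD at an unadjusted p under 0.05 (5.12%) and 12 the higher (1.31%), against 2.82% and 3.53% of all tested nuclear genes. Without LFD library 1 these counts were 19 and 17. The nearest gene was searched only for pseudogenes named for a small p. Gm6335 (chrX:112162554-112163747) had 11.3, 11.2 and 7.80 CPM on HFD and 25.3, 21.2 and 18.6 CPM on LFD, a log2 fold change of -1.11 (SE 0.21). It is 97.1% identical to Dnaja1, a co-chaperone of Hsp70, which was measured between 5061 and 5580 CPM with a log2 fold change of -0.06 (SE 0.06). Likewise Gm6477 and Gm9118 match the mRNA of nucleophosmin, Npm1, a chaperone of the nucleolus, and Gm12346 matches that of the chaperone Hsp90aa1 at 99.5% identity. The log2 fold changes were -0.72 (SE 0.17) for Gm6477, -0.04 (SE 0.10) for Npm1 and -0.08 (SE 0.09) for Hsp90aa1. A window of the first pair shows how few bases part them, again with the differing bases in capitals.
Gm6335, chrX:112162593-112162667, plus strand: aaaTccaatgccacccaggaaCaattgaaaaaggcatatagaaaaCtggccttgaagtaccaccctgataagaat
Dnaja1, on chromosome 4, plus strand: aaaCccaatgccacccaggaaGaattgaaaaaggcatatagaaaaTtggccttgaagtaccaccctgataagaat

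Among the 12 lower genes of DESeq2's 17 calls were 2 mtDNA copies and 5 other pseudogenes. The 3 protein-coding genes it called higher were Porcn, Vps50 and BC004004, and the 4 it called lower were Sfn, Atp1b3, Mfsd14b and Kdm6b. Of the 59 genes called by edgeR with no filter on low counts, 7 were mtDNA copies and 8 other pseudogenes, all lower on HFD. The smallest adjusted p of that fit, 2.03e-12, was that of the copy Gm13340, at a log2 fold change of -0.93. In the filtered edgeR fit, Gm13340 had nearly the same log2 fold change, -0.92, and an adjusted p of 0.456. The fit with no filter held 29749 genes and also called genes whose diets overlap, such as Snhg11. Why its adjusted p-values were so much smaller was not tested. Without pseudogenes and mtDNA copies, the filtered edgeR fit gave 461 genes higher (3.69%) and 320 lower (2.56%) of 12482 at an unadjusted p under 0.05.

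**Figure D3:**
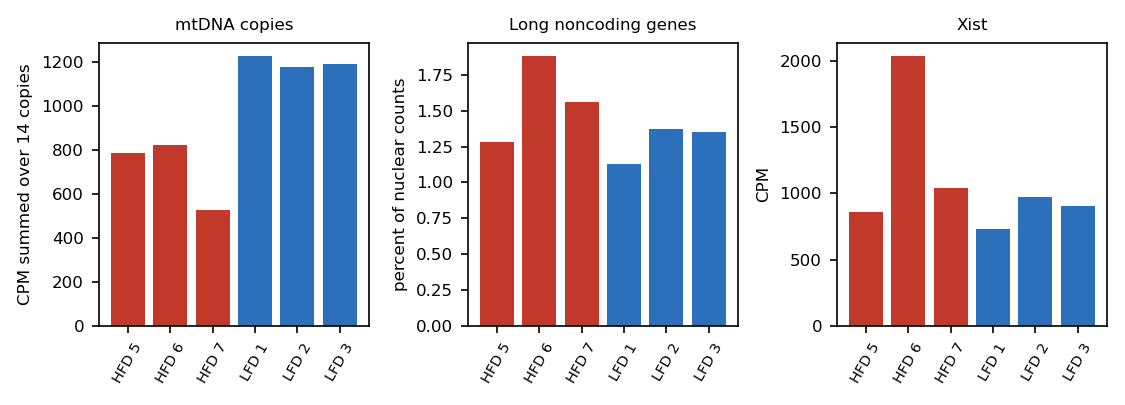
Values of each library (HFD red, LFD blue), with axes from 0: CPM summed over the 14 nuclear copies of mtDNA genes, the percent of nuclear counts on long noncoding genes, and CPM of Xist. The copies separate the diets, while the long noncoding share and Xist do not and are highest in HFD library 6.

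Genes of the first lineages gave no call. Of 19 tested genes of pluripotency and the inner cell mass, 18 of the trophectoderm and 13 of the primitive endoderm, none passed the test and none had an unadjusted p under 0.05. The median log2 fold changes were -0.06, -0.02 and 0.09, against 0.01 over all tested nuclear genes. Without HFD library 6 the trophectoderm median was 0.11 and without LFD library 3 it was 0.05, and the primitive endoderm median lay between -0.06 and 0.02 whichever library was left out. In such bulk libraries, fewer cells of a lineage and less RNA per cell cannot be told apart. Nanog, a transcription factor of the epiblast, had 131.2, 84.2 and 115.9 CPM on HFD and 119.1, 151.3 and 130.9 CPM on LFD, a log2 fold change of -0.28 (SE 0.14, 95% interval -0.58 to 0.03). Pou5f1 (Oct4), which is needed for pluripotency, had 58.4, 46.7 and 55.9 CPM against 54.2, 45.9 and 53.1 CPM. The Pou5f1 libraries of the diets were interleaved, with a log2 fold change of 0.07 (SE 0.13).

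Sox2, a partner of Pou5f1 that marks inner cells, was not tested, since it had between 2 and 14 counts per library. Cdx2, the transcription factor that commits outer cells to trophectoderm, had 11.2, 7.34 and 10.8 CPM on HFD and 13.7, 5.96 and 11.6 CPM on LFD. The Cdx2 spread within a diet was wider than the distance between diets, with a log2 fold change of -0.10 (SE 0.31). Gata3, which acts beside Cdx2, stood at -0.18 (SE 0.13), and Tead4, the DNA-binding partner of Yap1 upstream of both, at -0.14 (SE 0.09). Keratin 8 (Krt8), of the trophectoderm cytoskeleton, stood at 0.26 (SE 0.19). In Tead4 all HFD libraries lay below the LFD libraries and in Krt8 above, there by a margin smaller than the digits kept, so the trophectoderm genes did not share a direction. Gata6, the first factor of the primitive endoderm, had 324, 308 and 280.2 CPM against 280.8, 263 and 315 CPM, a log2 fold change of 0.09 (SE 0.09), and Sox17, a later factor, had at most 12 counts in any library.

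Per kilobase, transcripts of all 3 lineages were present together. Means over the libraries were 117.0 RPKM for Klf5, a factor of early pluripotency and trophectoderm, 54.5 for Nanog, 45.8 for Tead4, 45.4 for Gata6, 23.3 for Pou5f1, 10.4 for Gata3, 7.82 for Krt8 and 4.47 for Cdx2.

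**Figure D4:**
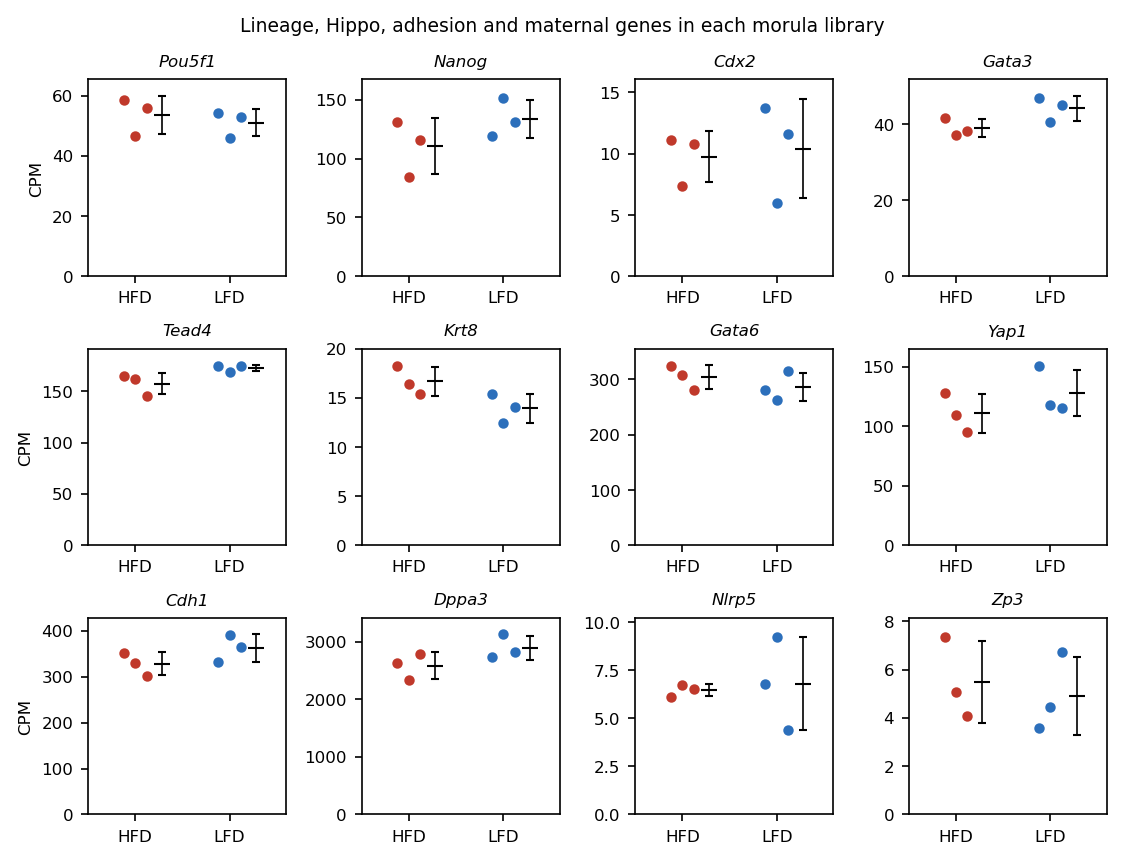
CPM of lineage, Hippo, adhesion and maternal genes by paternal diet, with single libraries as points (HFD red, LFD blue), the mean and SD beside them and axes from 0. The libraries of the diets overlap in Pou5f1, Nanog, Cdx2, Gata3, Gata6, Yap1, Cdh1, Dppa3, Nlrp5 and Zp3, and do not in Tead4 and Krt8.

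Hippo and polarity genes gave 26 tested members with a median log2 fold change of -0.02. None passed the test, 2 had an unadjusted p under 0.05 with the lower level on HFD, and 0 with the higher, beside 2.82% and 3.53% of all tested nuclear genes. With library totals in place of TMM the median was 0.00. The 2 were Pard6b, a scaffold of the apical polarity complex, at -0.35 (SE 0.12, edgeR adjusted p = 0.688), and Wwtr1, the coactivator TAZ, at -0.28 (SE 0.12, adjusted p = 0.751). Pard6b was measured at 97.6, 93.8 and 80.2 CPM on HFD and at 131.4, 110.8 and 103.2 CPM on LFD, with no overlap. Yap1, the paralogue of TAZ, had a log2 fold change of -0.20 (SE 0.13) with overlapping libraries.

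Among 25 tested genes of junctions and blastocoel transport, 18 had a log2 fold change below 0 and 7 above, with a median of -0.06. None passed edgeR's adjusted test in the filtered fit, while edgeR with no filter on low counts called Sfn, Aqp3 and Gja1. Their adjusted p in that fit was 9.67e-05, 0.016 and 0.0494. Sfn, Gja1, Aqp3 and F11r had an unadjusted p under 0.05, all with the lower level on HFD, which is 4 of 25 beside 2.82% of all tested nuclear genes. The list was drawn up with earlier results of these data known, so that this count is a description. Gja1 (chr10:56377330-56402513), the gap junction protein connexin 43, had 571, 474 and 428 CPM on HFD and 653, 652 and 581 CPM on LFD, a log2 fold change of -0.36 (SE 0.10, adjusted p = 0.633). The highest HFD library of Gja1 lay just below the lowest LFD library. Aqp3, a channel for water and glycerol, had 66.1, 39.5 and 43.6 CPM against 71.1, 86.0 and 61.8 CPM, with HFD library 5 inside the LFD range, and a log2 fold change of -0.55 (SE 0.18, adjusted p = 0.687). F11r, the tight junction protein JAM-A, stood at -0.25. Cdh1 (E-cadherin), which compacts the morula, had a log2 fold change of -0.14 (SE 0.09) with overlapping libraries. The sum over the list was between 3396 and 3784 CPM on HFD and between 3933 and 4419 CPM on LFD, without overlap. Without Sfn and Gja1, which had been named for a small p, it was between 2147.0 and 2360.8 CPM on HFD and between 2309.4 and 2442.0 CPM on LFD, and the diets overlapped.

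Oocyte and maternal-effect genes were mostly at low levels in both groups. Of 45 listed, 20 were tested, and their median level was 1.56 RPKM beside 2.90 RPKM over all tested nuclear genes. The log2 fold change was below 0 for 16 and above 0 for 4, with a median of -0.16, and none had an unadjusted p under 0.05. Zp3, of the zona pellucida that coats the egg, had 7.35, 5.06 and 4.06 CPM on HFD and 3.59, 4.44 and 6.71 CPM on LFD, where 3 counts are worth 0.247 to 0.262 CPM. Npm2, which decondenses chromatin of oocyte and sperm, had 1.68, 2.19 and 1.83 CPM on HFD and 2.86, 3.73 and 4.04 CPM on LFD. The Npm2 libraries did not overlap, and its log2 fold change was -0.89 (SE 0.45, adjusted p = 0.772). Nlrp5, of the subcortical maternal complex, stood at -0.07 (SE 0.32).

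Dppa3 (Stella), which protects the maternal genome from loss of methylation and is also made by the embryo, was an exception in level, at 3070 RPKM. It had 2631, 2330 and 2791 CPM on HFD and 2727, 3126 and 2828 CPM on LFD, a log2 fold change of -0.16 (SE 0.08, 95% interval -0.34 to 0.01). Only HFD library 7 overlapped the LFD range. Khdc3, another member of the subcortical complex, was at 295 RPKM with a log2 fold change of -0.09. Leaving out 1 library moved the median of the maternal list to between -0.29 and -0.13.

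Genes of 2-cell genome activation varied between libraries more than between diets. The list, with the Zscan4 family that marks the first wave of embryonic transcription, had 27 tested members, a median log2 fold change of 0.32, 18 members above 0 and 9 below. The median was -0.82 without HFD library 7 and -0.13 without LFD library 3, so that single libraries set its direction. The median SD within a diet was 1.38 on the log2 scale, beside 0.29 over all tested nuclear genes. Zscan4d had 0.974, 0 and 13.2 CPM on HFD and 1.55, 4.89 and 0 CPM on LFD, where a count of 0 allows up to 0.259 CPM in HFD library 6 and 0.253 CPM in LFD library 3. HFD library 7 was highest for Zscan4d, Zscan4c and Zscan4a, and also for Tcstv1, Zfp352 and Tcstv3, and the third principal component of all nuclear genes, with 20.2% of the variance, was led by this family. These genes are near-identical copies in clusters, and their counts are uncertain. With no filter on low counts, edgeR called Tcstv1 (log2 fold change 1.57, adjusted p = 0.00298). Tcstv1 had 30.9 CPM in HFD library 7 and at most 5.72 CPM in any other library. In the filtered fit, Tdpoz2, of a gene family expressed in early embryos, was the member with an unadjusted p under 0.05. It had 101.5, 136.1 and 117.6 CPM on HFD and 82.5, 83.5 and 92.5 CPM on LFD, a log2 fold change of 0.46 (SE 0.12, adjusted p = 0.456).

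The translation machinery was measured with little spread, and no member passed the test. All 82 listed cytosolic ribosomal protein genes were tested, with a median level of 139 RPKM, a median SD within a diet of 0.12 and a median log2 fold change of -0.05. Of these, 57 lay below 0 and 25 above, 80 had an interval within -1 and 1, 0 passed the test, and 5 had an unadjusted p under 0.05 with the lower level on HFD (Rps15a, Rps25, Rpl12, Rps29 and Rpl38), beside 2.82% of all tested nuclear genes. Rps15a had 389, 361 and 381 CPM on HFD and 444, 454 and 425 CPM on LFD, without overlap and with a log2 fold change of -0.23 (SE 0.08, adjusted p = 0.688). Rpl3, a protein of the large subunit, had 656, 649 and 735 CPM against 681, 686 and 664 CPM, a log2 fold change of 0.01 (95% interval -0.16 to 0.17). The summed level of the list was 25300 ± 1590 CPM (SD, n = 3) in HFD embryos, beside 26100 ± 1060 CPM (SD, n = 3) in LFD embryos.

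Initiation and elongation factors (60 tested) had a median of -0.03, with 3 members at an unadjusted p under 0.05, all higher on HFD, beside 3.53% of all tested nuclear genes. They were Eif4a2, an RNA helicase of the cap-binding complex, at 0.30 (SE 0.09), Rps6kb2, a kinase of ribosomal protein S6, at 0.49 (SE 0.20), and Eif2b3, of the exchange factor for eIF2, at 0.26 (SE 0.12). Eif4a2 had 389.7, 465 and 452 CPM on HFD and 329.5, 383 and 349 CPM on LFD, and its diets did not overlap (adjusted p = 0.687). Eif1a, a factor of start-codon scanning, stood at -0.06 (SE 0.09). Of 22 cytosolic aminoacyl-tRNA synthetase genes, which charge tRNAs, Farsa stood at 0.48 and Kars at -0.25 at an unadjusted p under 0.05. So did Aimp2, a scaffold of the synthetase complex, at -0.73. The shares at that p over all tested nuclear genes were 3.53% higher and 2.82% lower on HFD. Ribosome biogenesis genes (54 tested, median -0.04) had 2 members in each direction at an unadjusted p under 0.05, beside the same shares. Nop56, a core protein of box C/D snoRNPs, had 1079, 840.4 and 989 CPM on HFD and 791, 795 and 838 CPM on LFD, where the lowest HFD and highest LFD library were only just apart, and a log2 fold change of 0.26 (SE 0.09, adjusted p = 0.688). Gar1, of the box H/ACA snoRNPs, stood at -0.28 (SE 0.11), so that the snoRNP proteins did not share a direction.

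Cell-cycle genes likewise gave no call in the filtered edgeR fit. The 42 tested cyclins, CDKs and CDK inhibitors had a median of -0.02 and ranged from -0.89 to 0.71. The interval lay within -1 and 1 for 33 of them. For 7 every HFD library lay below every LFD library and for 1 above, beside 6.17% and 5.96% of all tested nuclear genes. At an unadjusted p under 0.05, 1 was higher on HFD (Cdk2, 0.49) and 2 were lower. The lower ones were Cdk6 (-0.57) and the inhibitor of S-phase entry Rb1 (-0.79). Over all tested nuclear genes, 3.53% were higher and 2.82% lower. Ccnb1, the cyclin of mitotic entry, had 251.0, 253.6 and 249 CPM on HFD and 259, 247 and 252 CPM on LFD. The Ccnb1 libraries of the diets were interleaved, with a log2 fold change of -0.01 (95% interval -0.18 to 0.17). Cdk1, its kinase, stood at -0.08 (SE 0.09), and Ccne1, the cyclin of S-phase entry, at -0.17 (SE 0.11). In both, every HFD library lay below every LFD library, with edgeR adjusted p of 0.922 and 0.846.

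DNA replication genes (54 tested) had a median of 0.05, with 36 above 0 and 18 below, and 4 members at an unadjusted p under 0.05 were higher on HFD and 0 lower, beside 3.53% and 2.82% of all tested nuclear genes. Tk1, the thymidine kinase of S phase, had 56.6, 65.1 and 58.5 CPM on HFD and 45.0, 50.5 and 47.1 CPM on LFD, a log2 fold change of 0.34 (SE 0.12, adjusted p = 0.696). The others were Pola2, a subunit of the DNA polymerase alpha-primase, at 0.58 (SE 0.22), Rpa1, which binds single-stranded DNA, at 0.41 (SE 0.16), and Orc5, of the origin recognition complex, at 0.43. Mcm2, of the replicative helicase, had a log2 fold change of 0.05 (SE 0.10) with overlapping libraries. By edgeR, all 4 had an adjusted p of at least 0.696.

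Mitosis genes (69 tested, median 0.06) had 4 higher and 1 lower on HFD at an unadjusted p under 0.05, where the shares over all tested nuclear genes were 3.53% and 2.82%. Bub1, a kinase of the spindle checkpoint, had 102.4, 112.6 and 107.7 CPM on HFD and 85.7, 80.8 and 94.7 CPM on LFD, without overlap, and a log2 fold change of 0.31 (SE 0.10, adjusted p = 0.688). Ncaph, of condensin, stood at 0.35 (SE 0.15), Pttg1 (securin) at 0.34, Kif4, a kinesin of the chromosome arms, at 0.22, and Mis12, of the kinetochore, at -0.37 (SE 0.15). Summed over the list, the level was 8770 ± 13.2 CPM (SD, n = 3) in HFD embryos, beside 8830 ± 222 CPM (SD, n = 3) in LFD embryos.

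**Figure D5:**
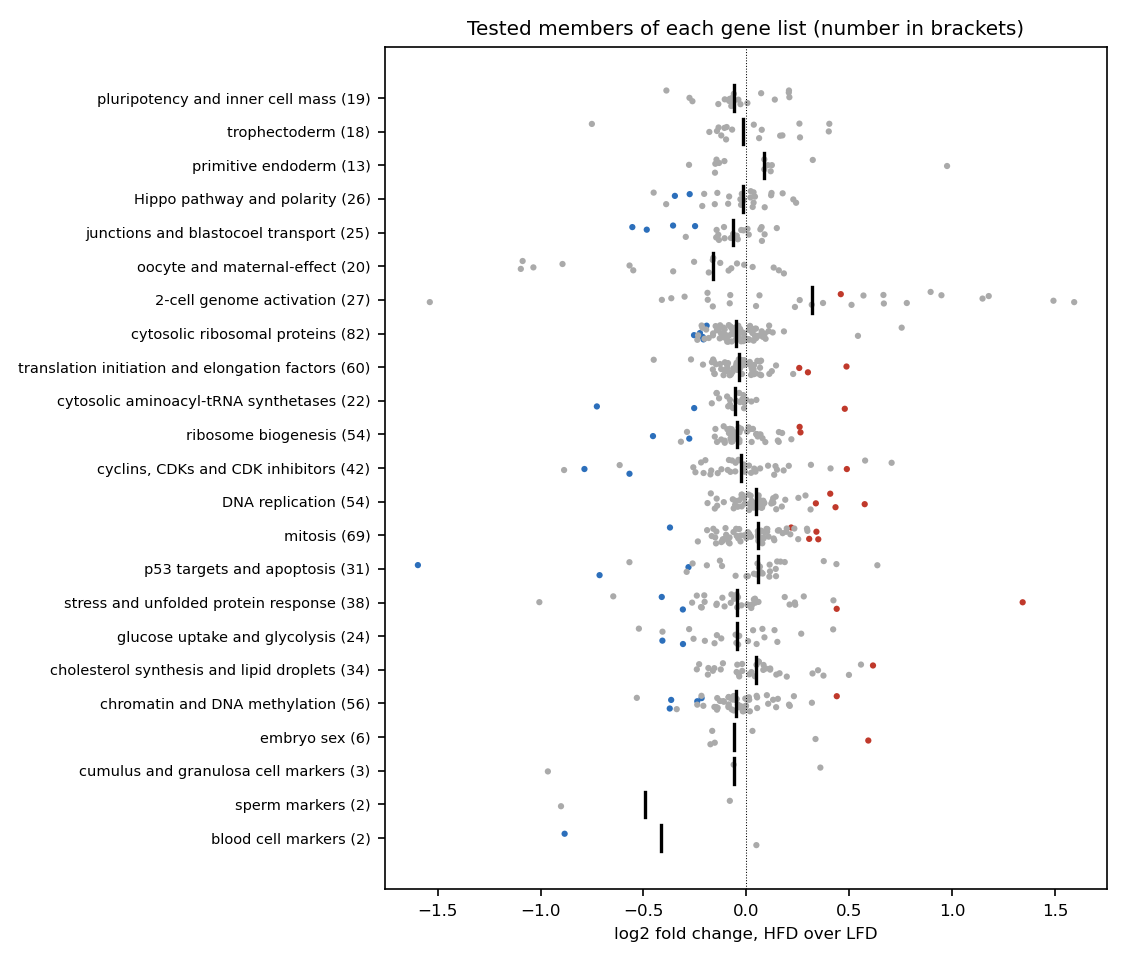
Log2 fold change (HFD over LFD) of the tested members of each of 23 gene lists. Each point is a gene (red or blue: higher or lower on HFD at an unadjusted p under 0.05, grey: the rest), the black bar is the list's median, and the number tested is in brackets. No member passed edgeR's adjusted test in the filtered fit, and the medians lie between -0.16 and 0.32 in the lists with more than 3 tested members.

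Stress, death and metabolism genes were spread in the same way. The 31 tested p53 targets and apoptosis genes had a median of 0.06. Of these, 3 had an unadjusted p under 0.05, all lower on HFD, beside 2.82% of all tested nuclear genes. Among them were the survival genes Mcl1, at -0.28 (SE 0.09), and Bcl2l1, at -0.71 (SE 0.31, adjusted p = 0.752). Mcl1 had 307, 343 and 323 CPM on HFD and 439, 394 and 350.0 CPM on LFD (adjusted p = 0.688), without overlap. Trp53 stood at 0.05 (SE 0.14) and its target Cdkn1a (p21), a CDK inhibitor, at 0.21 (SE 0.11). For stress and the unfolded protein response (38 tested, median -0.05), Dnajb1, a co-chaperone of Hsp70, stood at -0.31, the metallothionein Mt2 at -0.41, Gclc, of glutathione synthesis, at 0.44 and Ddit3 (CHOP) at 1.34, all with an adjusted p of at least 0.688. Ddit3 had 2.39, 6.08 and 2.23 CPM on HFD and 1.23, 1.51 and 1.46 CPM on LFD, with HFD library 6 far above the rest.

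Glucose uptake and glycolysis genes (24 tested, median -0.05) included Hk2, a hexokinase, with 41.1, 51.1 and 58.5 CPM on HFD and 61.6, 71.6 and 67.0 CPM on LFD. Its libraries did not overlap, and its log2 fold change was -0.41 (SE 0.14, adjusted p = 0.688). Slc16a1, a transporter of lactate and pyruvate, stood at -0.31 (SE 0.12, adjusted p = 0.729), also without overlap. In cholesterol synthesis and lipid droplets (34 tested, median 0.05) Fdps, a farnesyl diphosphate synthase, was the member with an unadjusted p under 0.05, at 0.62 (SE 0.24, adjusted p = 0.716). Srebf1, a transcription factor of lipid synthesis, stood at 0.50 (SE 0.26).

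Chromatin and DNA methylation genes (56 tested) had 39 members below 0 and 17 above, a median of -0.05, and 4 lower and 1 higher member on HFD at an unadjusted p under 0.05, where 2.82% and 3.53% of all tested nuclear genes were lower and higher. Kdm6b (chr11:69398508-69413675), a demethylase of H3 lysine 27, had 111.7, 118.0 and 122.4 CPM on HFD and 154.9, 145.2 and 153.7 CPM on LFD, a log2 fold change of -0.37 (SE 0.09), and the diets were well apart. edgeR's adjusted p was 0.456 and DESeq2's 0.0491. Bmi1, of Polycomb complex PRC1, stood at -0.37 (SE 0.14), Tet1, which oxidizes methylcytosine, at -0.24 (SE 0.09) and Cbx5, the heterochromatin protein HP1 alpha, at -0.22. Ring1, another PRC1 subunit, stood at 0.44, opposite to Bmi1. Dnmt1, the maintenance methyltransferase, had a log2 fold change of -0.17 (SE 0.13) with overlapping libraries.

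Long noncoding genes had more members with the higher level on HFD, and the counts depended on HFD library 6 and LFD library 1. Of 1137 tested (antisense, intergenic, intronic and unclassified transcripts together), 100 had the higher level on HFD at an unadjusted p under 0.05 (8.80%) and 10 the lower (0.880%), with a median log2 fold change of 0.27, against 0.01 for the 11279 protein-coding genes. The classes were grouped after their values were seen. Their share of nuclear counts was 1.28%, 1.88% and 1.56% on HFD and 1.13%, 1.37% and 1.35% on LFD, so that the diets overlapped (exact permutation test, two-sided, p = 0.3). Without HFD library 6 the counts were 57 and 26, with a median of 0.13, and without LFD library 1 they were 70 and 18, with a median of 0.19. Malat1, an abundant nuclear RNA, had its highest value in HFD library 6 and its lowest in LFD library 1, and so did Neat1, the RNA of paraspeckles. The part of RNA quality or of unspliced RNA in these libraries was not tested.

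Xist, the RNA that coats the inactive X chromosome of females, had 862.5, 2034 and 1042 CPM on HFD and 732, 972 and 908 CPM on LFD. HFD library 6 was far above the rest while HFD library 5 lay below LFD libraries 2 and 3. The log2 fold change of Xist was 0.59 (SE 0.22, adjusted p = 0.704 in the filtered edgeR fit). With no filter on low counts, edgeR's adjusted p was 2.79e-07. Y-linked transcripts were present in every library. Ddx3y, an RNA helicase of the Y chromosome, had 36.7, 27.9 and 29.6 CPM on HFD and 32.4, 30.5 and 41.8 CPM on LFD, and the diets were interleaved. Genes of the X chromosome held 3.37% ± 0.222 (SD, n = 3) of nuclear counts in HFD embryos, beside 3.27% ± 0.0731 (SD, n = 3) in LFD embryos (exact permutation test, two-sided, p = 0.8).

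Of the markers of other cells that IVF could carry over, most had too few counts to be tested. Of 19 listed cumulus and granulosa cell markers 3 were tested, and their defining genes Cyp19a1, Foxl2, Fshr and Has2 had 0 counts in every library, with a summed level of the list between 7.62 and 11.9 CPM. Of 15 sperm markers 2 were tested, and Tnp1 and Tnp2, of spermatid chromatin, had 0 counts while the protamine genes Prm1 and Prm2 had at most 6 in any library. The tested Odf2, a protein of the sperm tail that centrosomes of other cells also hold, had 36.0, 36.3 and 39.7 CPM on HFD and 45.5, 37.1 and 35.9 CPM on LFD, most of the list's sum of 37.0 to 47.8 CPM, and the diets overlapped. Of 14 blood cell markers 2 were tested, Cd74 and Cd68, and the list's sum lay between 21.2 and 29.9 CPM. Cd74, a chaperone of MHC class II, had between 15.4 and 25.4 CPM with overlapping diets. Cd68, a protein of macrophages, had between 2.19 and 2.23 CPM on HFD and between 3.36 and 4.82 CPM on LFD, and the haemoglobin gene Hbb-bs had 0 counts.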

How the data were processed

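The authors trimmed the 75-base read pairs with BBDuk, aligned them to GRCm38 with STAR and counted reads per Ensembl gene with featureCounts, and the deposited table holds these raw counts. Tool versions, the strand setting and the treatment of reads with several matches are not given in the sources used here. The 3 columns per diet were assigned to a diet, not to a single sample, by the letters MH or ML in their names, since their numbers are not those of the sample titles. All 55487 genes entered the fit, and only nuclear genes were counted. Genes were filtered with filterByExpr (minimum count 10), scaled by TMM and tested with edgeR 4.0.16 (quasi-likelihood, HFD over LFD, Benjamini-Hochberg, threshold 0.05) in R 4.3.3, after the script was tested on simulated data. DESeq2 1.42.0, limma-voom (limma 3.58.1) and NOISeq's method, rewritten here, were alternatives. CPM of 3 counts, between 0.247 and 0.262 per library, is the limit that a count of 0 allows, for counting error only. Symbols, classes and transcripts came from GENCODE M21, and copies were matched with BLAST 2.17.0.

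Genes were named by rank of p (12 per direction, no overlap, at least 5 CPM) and, in the lists, as the 3 members with the smallest p and those listed as defining. Other list members with an unadjusted p under 0.05 were named after their values were seen, as were the mtDNA genes, Snhg11, CT010467.1, Gm9118, Gm12346, Malat1 and Neat1. Klf5, Khdc3, Zscan4a, Zscan4c, Zfp352 and Tcstv3 came under none of these rules. Nor did mtDNA copies outside the 24 genes, the genes nearest to a pseudogene and the untested marker genes of other cells. The members and the 23 lists were chosen with earlier results of these data known. One member of the p53 list is counted but not reported here by name.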

Additional observations from a re-analysis of the deposited data

How the results depend on the processing

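Leaving out edgeR's filter on low counts gave 59 called genes and DESeq2 gave 17, against 0 in the filtered edgeR fit, and 851 genes had an unadjusted p under 0.05. Leaving out 1 library gave between 0 and 2 calls, the latter without HFD library 5. The other scalings, the minimum count of 50, the fit without mtDNA genes, limma-voom and NOISeq called 0. The median of all tested nuclear genes moved to at most 0.035 under any scaling. Of 253 medians of gene lists under alternatives, 18 moved by more than the spread between libraries. The Hippo list was at 0.001 with library totals. With 1 library left out, the medians ranged from -0.063 to 0.023 for primitive endoderm, from -0.079 to -0.012 for Hippo and polarity, from -0.290 to -0.130 for maternal genes, from -0.087 to -0.025 for aminoacyl-tRNA synthetases, from 0.007 to 0.059 for mitosis and from -0.029 to 0.088 for p53 targets. Medians that crossed 0 while moving by less than the spread ranged from -0.823 to 0.672 for 2-cell genes, from -0.115 to 0.107 for trophectoderm, from -0.051 to 0.089 for cholesterol synthesis and from -0.117 to 0.005 for glycolysis. So did those of embryo sex, from -0.063 to 0.067, and of cumulus and granulosa cell markers, from -0.266 to 0.203. The difference between distances between and within diets, 0.00557 over all tested nuclear genes, was -0.0243 over the 1000 most variable genes (one-sided exact permutation test, p = 0.6) and ranged from -0.0157, without LFD library 1, to 0.0147. The difference in nuclear share ranged from -1.58 to 0.274 percentage points, the upper end again without LFD library 1. The cause was not tested in any of these. Of 1188 values of the 108 named genes, 21 changed sign, and 0 of these belonged to the 24 genes with the smallest p. Counts of classes without single libraries were chosen after seeing the data.

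No paired analysis was possible because the columns of the diets carry different numbers (5 to 7 and 1 to 3), which match no shared replicate number. The intervals bound changes of abundant genes, while for genes under 10 CPM a change of 1 on the log2 scale was often not detectable.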
